A study of Homo sapiens with 4 samples.

Results

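The tandem 5S ribosomal RNA genes of chromosome 1 (RNA5S1 to RNA5S17) were examined for H3K4me3 in MDA-MB-231, a long-cultured line of human triple-negative breast cancer cells. H3K4me3 is the trimethylated form of lysine 4 on histone H3 and is typical of promoters in use. The regions described are the called H3K4me3 peaks that share at least 1 bp with the stretch of chromosome 1 between 228.7 and 228.83 Mb (hg19), the 5S window. The genes themselves lie at about 228.74 to 228.79 Mb. This rule was met by 12 of the 23588 peaks of ARID1A knockout cells and by 0 of the 36677 peaks of control cells. The window was chosen by measured values: its knockout peaks were already known from these data to be the widest of their list and to lie away from control peaks. Their number, width and distance from control peaks are therefore given as a description, with no test.

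The ARID1A knockout cells were represented by 1 H3K4me3 immunoprecipitate (IP) of 13391724 tags and 1 input of 17890122 tags, and the control cells by 1 IP of 27748061 tags and 1 input of 14878873 tags. ARID1A is a large subunit of SWI/SNF, a complex that moves nucleosomes, and helps it to bind DNA. The labels name no treatment or time, do not say how the gene was removed or whether the knockout cells are a single clone, and carry IgG as the antibody of the inputs. In 3 libraries the labelled cell line has another final number, and the name in the series title is used here. A promoter mark cannot show whether the ARID1A protein is absent, and no such check was made. With 1 library per group there was no replicate check of any difference, and intervals cover counting error only. Over the whole list, knockout peaks had a median width of 300 bp and a median of 1094 tags per kb of peak, and control peaks had a median of 2968 bp and 56.5 tags per kb. Peaks held 13307723 of the 13391724 knockout IP tags and 17235561 of the 27748061 control IP tags, so the libraries also differ in the share of tags called. In the knockout nearly all tags thus lay in peaks, and the median width of 300 bp equals the fragment length used in calling. Contrasts of the array with the rest of the knockout list are contrasts with narrow, dense peaks of this kind.

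The 5S RNA is a structural RNA of the large ribosomal subunit. Its genes are transcribed by RNA polymerase III from a promoter inside the gene, which is bound by the factor TFIIIA, and they lie apart from the genes of the other ribosomal RNAs. The human genes are arranged head to tail, each with its spacer, and the copies are nearly identical, so a short read can match many of them. How the authors' alignment placed tags that match several copies is not stated in the labels or file headers, and the placement of every tag count in the array is uncertain for that reason.

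RefSeq (GRCh38.p14) lists 17 genes of 121 bp in this array, over 35893 bp. Of the 16 distances between neighbouring gene starts, 7 were 2241 bp, the median, and the others ran from 2215 to 2242 bp. The gene after RNA5S1 follows at 2241 bp, the gene after RNA5S9 at 2242 bp, and RNA5S17, the last, begins 2231 bp after RNA5S16. This repeat unit is mostly spacer. A stretch of the spacer is shown that was taken because a RefSeq start follows it, and it is only a small part of the unit. It lies between RNA5S16 and RNA5S17 on the plus strand, at chr1:228644397-228644646 of GRCh38.p14, which is not the build of the peaks. It begins 469 bases after the end of RNA5S16 and stops 1391 bases before RNA5S17. RefSeq places a start of RHOU, a protein-coding gene, directly after its last base. The capitals mark CpG dinucleotides, the sites of DNA methylation in mammals.
spacer after RNA5S16: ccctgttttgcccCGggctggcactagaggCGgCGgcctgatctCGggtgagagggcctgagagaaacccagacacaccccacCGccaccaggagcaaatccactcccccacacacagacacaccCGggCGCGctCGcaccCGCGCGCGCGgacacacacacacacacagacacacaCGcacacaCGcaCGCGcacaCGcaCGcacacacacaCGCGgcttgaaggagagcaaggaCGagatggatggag
This stretch of 250 bases held 23 CpG dinucleotides and had a GC content of 65.6%. Across the 35116 RefSeq windows of the same length and position relative to a start, the median was 11 CpG dinucleotides (quartiles 3 and 23) and a GC content of 58.0%, and 25.8% of the windows held as many CpG dinucleotides or more. The motif CACACACACA, searched on both strands, occurred 2 times without overlap in the stretch and was present in 0.920% of the windows. Whether the rest of this spacer is alike in these counts, or the other spacers hold the same letters, was not examined.

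In the knockout cells the array carried an almost unbroken run of H3K4me3 peaks. The run held 11 of the 12 peaks of the window and spanned 39592 bp, from 228744165 to 228783756, which is 17.7 repeat units. Its peaks covered 35668 bp, or 90.1% of the span, and held 10161 tags (exact Poisson 95% interval 9964 to 10361). Their median width was 1931 bp, and none of the 11 was a 300 bp peak. The gaps between neighbouring peaks ran from 53 to 935 bp. The twelfth peak, from 228701069 to 228701537, stood apart, with 42627 bases between its end and the run. It held 1250 tags in 469 bp, or 2665 tags per kb, with a fold enrichment of 557, and its width and density were within the range of the flank peaks.

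**Figure D1:**
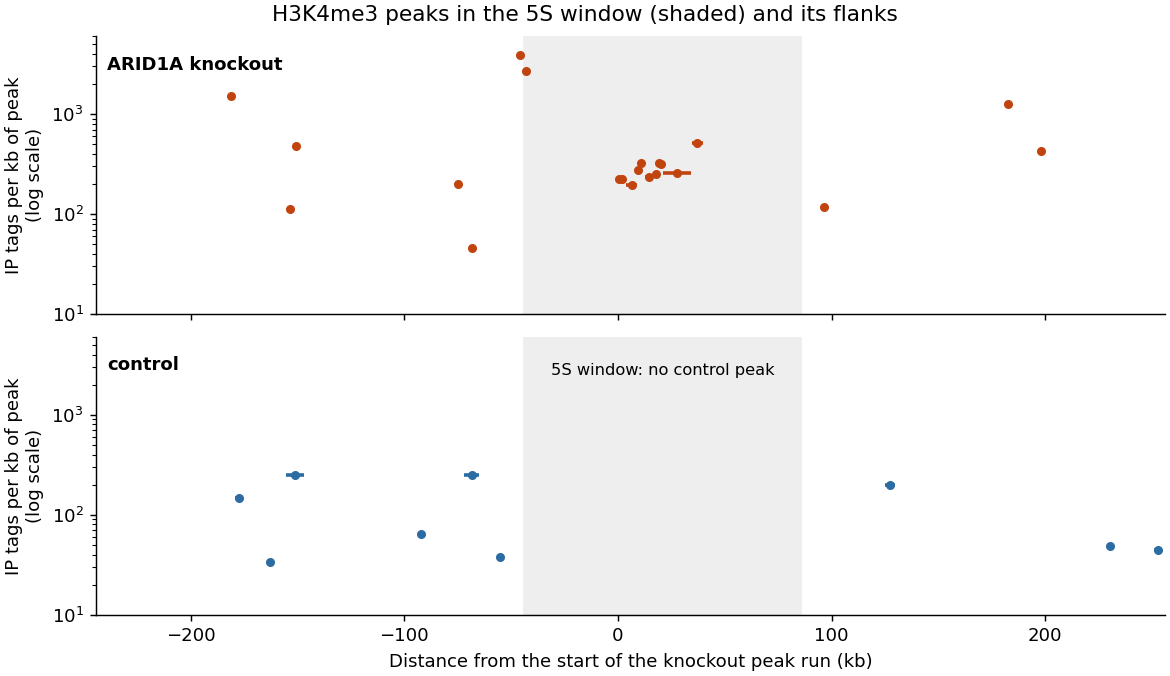
H3K4me3 peaks in the 5S window (shaded) and its flanks in the knockout list (upper panel) and the control list (lower panel). Each point is the centre of a peak and its line runs from start to end, with the distance from the start of the knockout run in kb on the x axis and IP tags per kb of peak on a log y axis. The 11 peaks of the run lie together at 195 to 511 tags per kb, no control peak lies in the shaded window, and both lists have peaks in the flanks.

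Along the array the peaks were described from the low to the high coordinate and numbered 1 to 11. Peak 1, from 228744165 to 228745149, held 221 tags (224 tags per kb). Peak 2 ended at 228747135 and held 435 tags (225 tags per kb). Peak 3, from 228748071 to 228753012, was 4942 bp wide and held 963 tags, which gave the lowest density of the run at 195 tags per kb. The first 3 peaks thus differed in width but had nearly the same density. Peak 4 held 203 tags in 730 bp, or 278 tags per kb. Peak 5 held 619 tags in 1923 bp, or 322 tags per kb. Peak 6, the fourth widest of the whole knockout list at 3533 bp, held 823 tags, or 233 tags per kb. Across peaks 4 to 6 the density stayed between 233 and 322 tags per kb. Peak 7 held 488 tags in 1931 bp, or 253 tags per kb. Peak 8, the narrowest at 512 bp, held 164 tags (320 tags per kb), the fewest of the run. Peak 9 held 332 tags in 1055 bp, or 315 tags per kb. These values stayed within the range of peaks 4 to 6.

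As the tags were placed, the end of the array at the higher coordinates held most of those in the run. Peak 10, from 228765325 to 228778435, was the widest knockout peak of the genome at 13111 bp and held 3349 tags (3237 to 3464), or 255 tags per kb. Peak 11, from 228778744 to 228783756, held 2564 tags (2466 to 2665) in 5013 bp. At 511 tags per kb it was the densest of the run, where the other 10 did not exceed 322. Together the last 2 peaks held 5913 of the 10161 tags, or 58.2% (exact Clopper-Pearson 57.2 to 59.2%), in 50.8% of the covered length. These intervals take the place of each tag as known and leave out the uncertain placement among copies. The run as a whole had 285 tags per kb covered, so peak 10 lay below this value and peak 11 above it. The authors' fold enrichment, the IP signal over a local background taken from the input, was also highest in peak 11, at 89.5. It was 55.5 in peak 10, whose density was near the median of the run, and 13.3 to 27.4 in the other 9. The deposited false discovery rate was 0.2 to 0.35% for all 11.

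**Figure D2:**
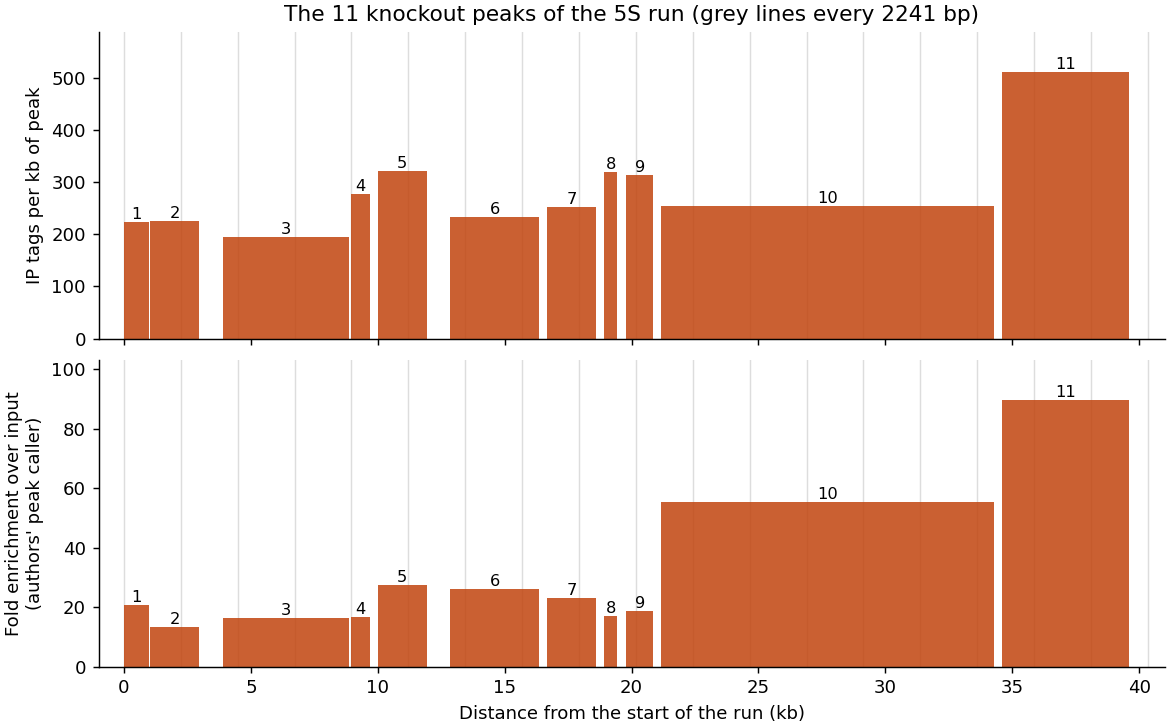
The 11 knockout peaks of the 5S run, numbered along the array, drawn to scale from the start of the run in kb. The upper panel gives IP tags per kb of peak, the lower panel the authors' fold enrichment over input, and the grey lines mark every 2241 bp. Peak 11 is highest in both panels (511 tags per kb and a fold of 89.5), and the gaps of 308 or 309 bp recur at about the same place between grey lines, while the other gaps vary in place or length.

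The edges of the peaks recurred at the spacing of the 5S genes. With positions counted from the first base of the run within successive units of 2241 bp, 6 of the 11 peak starts (peaks 2, 5, 7, 8, 10 and 11) fell at 964 to 1038 bp. Of the 11 peak ends, 7 (peaks 2, 4, 5, 6, 7, 9 and 10) fell at 655 to 729 bp. Between an end and a start of this kind lay a gap of 308 or 309 bp, which was found 5 times among the 10 gaps. Another 2 gaps, of 935 and 912 bp, began at the same place in the unit (729 and 719 bp) and ran on to 1665 and 1632 bp. A stretch of about 308 bp in each of these units was therefore left out of the calls. The other units were the majority, and in them the same place was covered. Peaks 3, 6, 10 and 11 ran across it without a break, and peak 1 covered most of it, up to 984 bp. The gaps of 53, 116 and 366 bp lay elsewhere in the unit or took in only part of that stretch.

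The match extended to single bases. The starts of peaks 1 and 4 lay 8964 bp apart, which is exactly 4 units of 2241 bp, and so did the starts of peaks 2 and 5. The ends of peaks 2 and 4 lay 6723 bp apart, exactly 3 units, and the summits of peaks 2 and 3 lay 2241 bp apart. Over longer distances the edges fell behind whole units in the way the genes do. The RefSeq gene starts drift by 84 bp from whole units between RNA5S1 and RNA5S17. From peak 2 to peak 7 the starts were 15641 bp apart, 46 bp short of 7 units, and this is the RefSeq distance from RNA5S1 to RNA5S8. Among all pairs of starts, pairs of ends and pairs of summits in the run, 41 of 165 distances (24.8%) came within 2 bp of a distance between 5S gene starts, and 40 of these equalled one exactly. By kind, this held for 16 of 55 pairs of starts, 17 of 55 pairs of ends and 8 of 55 pairs of summits. In the rest of the knockout list, 573 of 64343 such pairs at no more than the span of the run (0.891%) came within 2 bp of the same distances. Pairs share peaks and are not independent, so these shares are a description. Only distances were compared between the builds, and no peak was assigned to a numbered gene.

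**Figure D3:**
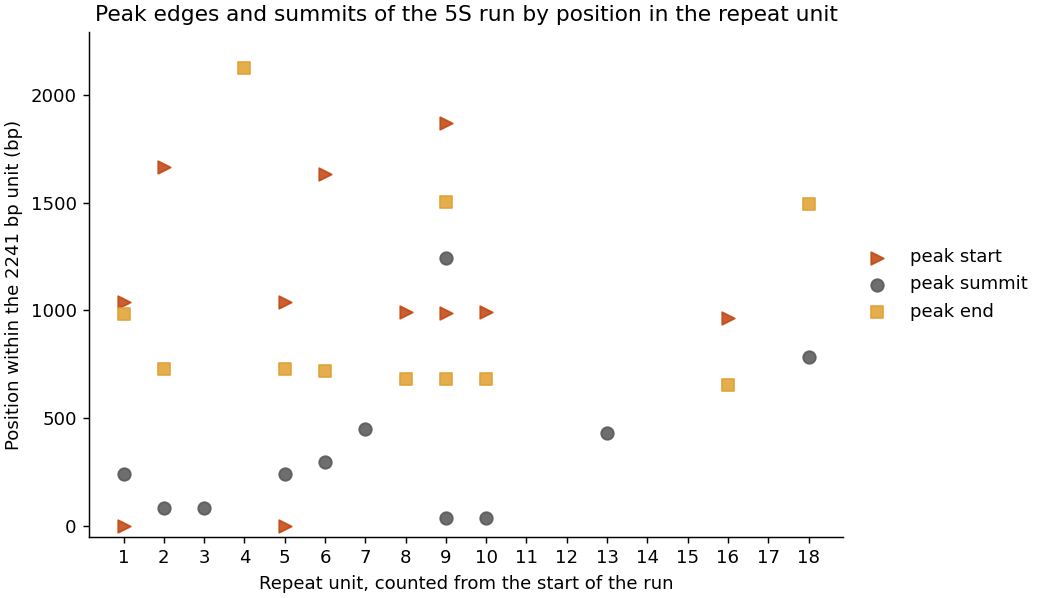
Positions of the starts, summits and ends of the 11 knockout peaks within the 2241 bp repeat unit (y axis, bp), against the number of the unit counted from the start of the run (x axis). Starts gather at 964 to 1038 bp and ends at 655 to 729 bp in units far apart, while the summits are more spread.

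Summits were less regular than edges. The summits of peaks 2, 3, 7 and 9 fell at 35 to 83 bp of the unit and those of peaks 1 and 4 both at 240 bp. The remaining 5 lay between 297 and 1245 bp. The summit stood at 13.4% of the width in peak 3 and at 85.9% in peak 11, and of the 11 peaks only peak 8 had it at the centre (50.0%).

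Within the knockout list the run stood out by width and not by density. It included the 4 widest of the 23588 knockout peaks. The next 3 in width, on chromosomes 2, 9 and 1, spanned 2911, 2631 and 2574 bp, at 583, 855 and 957 tags per kb, and each of them overlapped a control peak. A width of at least 1 kb was found for 3.78% of the list and for 8 of the 11 peaks of the run. The other 884 peaks of at least 1 kb had a median of 1038 tags per kb (quartiles 611 and 1537) and a median fold enrichment of 402, while the run had medians of 255 tags per kb and a fold of 20.8. When knockout peaks less than 1000 bp apart were joined over the whole genome, the run joined 11 peaks. The next largest group, on chromosome 4, joined 5 peaks over 3210 bp, and the next longest, on chromosome 17, spanned 4661 bp. The run held 0.0764% of all tags in knockout peaks and 0.345% of the length they cover.

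The fold enrichment of the run was low for its tag density. Another 3351 knockout peaks had densities in the range of the run, 195 to 511 tags per kb, and their median fold enrichment was 65.9 (quartiles 46.2 and 91.5). Of the 11 peaks of the run, 9 lay below the lower quartile, and the exceptions were peaks 10 and 11. The median density of the run was lower, at 255 tags per kb against 355 in the 3351 peaks. Fold divided by tags per kb had a median of 0.0852 in the run, where only peak 10 (0.217) exceeded the median of 0.202 in the 3351 peaks. Among the 656 of these peaks at least as wide as peak 8, the median fold was 120.7 (quartiles 87.1 and 166.6), and 10 of the 11 peaks of the run lay below the lower quartile. The fold has the local input in its denominator. Tags of the input libraries by position were not analysed here, so the part of the input in these low values was not tested.

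**Figure D4:**
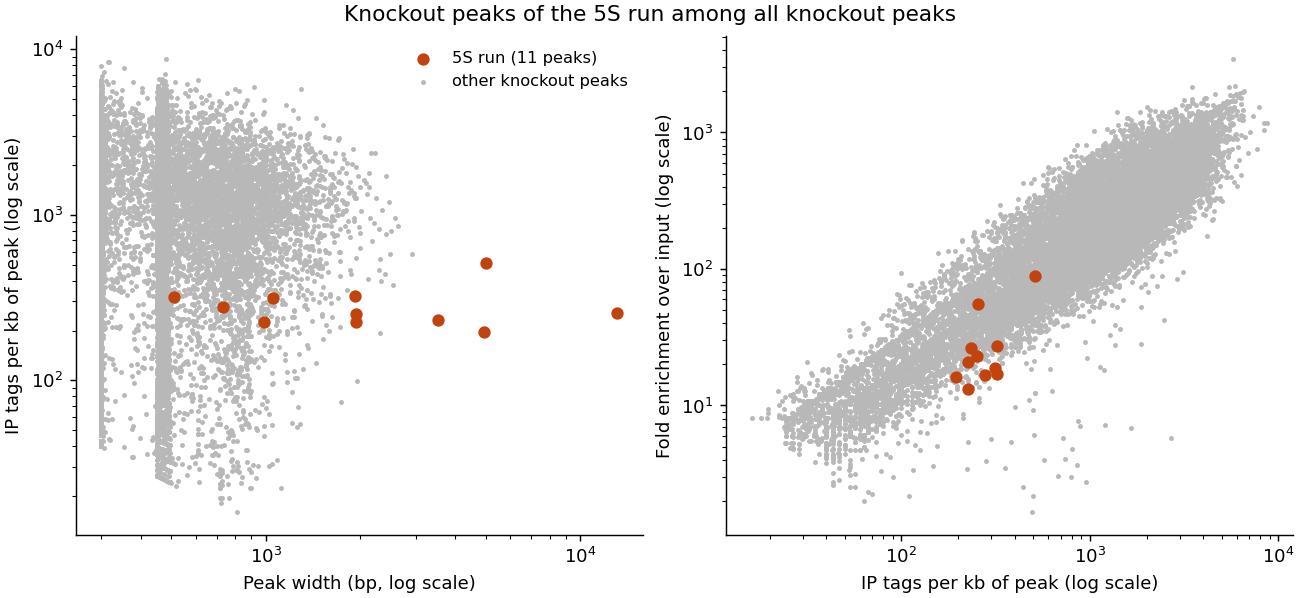
The 11 peaks of the 5S run (red) among all other knockout peaks (grey), on log axes. Left, IP tags per kb of peak against peak width in bp: the run lies at the right, at widths up to 13111 bp, and low on the density axis. Right, fold enrichment over input against tags per kb. Of the 11 peaks, 9 lie below the lower quartile of other peaks at 195 to 511 tags per kb.

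In the control cells no peak was called in the 5S window. The control IP held more tags than the knockout IP, but calling scaled the larger library of each pair to the smaller. The smaller was the input in the control (14878873 tags) and the IP in the knockout (13391724 tags). The part of depth in this difference was not tested. The control list had a gap of 179112 bp here, from 228689943 to 228869055, which held 14 knockout peaks. Gaps of this length or more made up 8.20% of the 36653 gaps between neighbouring control peaks, whose median was 25857 bp. All 12 knockout peaks of the window were outside control peaks, against 39.7% of the whole knockout list. Most knockout peaks of the flanks were also outside control peaks, at distances of 1802 to 46773 bp. The peaks of the run lay 54222 to 85299 bp from the nearest control peak, and 10.6% of all knockout peaks were at least 54222 bp away. The window was chosen with this contrast known, and nothing further is read from these shares. Of the 884 other knockout peaks of at least 1 kb, 13 overlapped no control peak (1.47%, Clopper-Pearson 0.785 to 2.50%). The window was chosen by both width and distance from control peaks, so this share too is only a description. The widest of these 13 spanned 1914 bp, and their densities ran from 30.3 to 1367 tags per kb. A peak list holds only regions past the caller's threshold, so control tags in the array below that threshold are not shown by it.

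Among stretches of the same length the 5S window was first by covered length. Of 10538 tiles of 130 kb with at least 1 knockout peak, the 5S tile had the most covered bp (36137, with 10269 in the next tile), was sixth by tags (11411, against a median of 808) and 20th by number of peaks. Tiles with no control peak made up 17.8% of these, or 1877. Among them the 5S tile held the most tags, and the next held 4018. By number of peaks another of them was ahead, with 13 against 12. The window was chosen for wide knockout peaks away from control peaks, so its ranks are a description and no support.

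The flanks outside the repeats showed peaks in both lists and no wide knockout peak. The left flank, between 228.5 and 228.7 Mb, held 6 knockout and 6 control peaks, and the right flank, between 228.83 and 229.0 Mb, held 3 of each. RefSeq orders TRIM11 and TRIM17, genes of tripartite-motif proteins, the histone genes H3-4, H2AC25 and H2BC26, and RNF187, which encodes a ring finger protein, before the array, and RAB4A, the gene of a small GTPase of endosome recycling, after it. RHOU overlaps the end of the array and runs on beyond it. The peaks of the flanks were not assigned to these genes, because the coordinates are of another build.

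The 9 knockout peaks of the flanks were 300 to 477 bp wide and held 2480 tags in all. In the left flank the most tags were found from 228698026 to 228698326, with 1167 tags (1101 to 1236), followed by 456 tags from 228562763 to 228563062 and 144 tags from 228593287 to 228593586. The remaining 3 held 20 to 92 tags. The peak of 1167 tags lay 2743 bp before the single window peak outside the run, and neither met a control peak. In the right flank the 3 knockout peaks held 56, 382 and 129 tags and lay 28344 to 46773 bp from the nearest control peak. The 9 control peaks of the flanks were 1698 to 8176 bp wide and held 5869 tags. In the left flank the strongest spanned 228588970 to 228597145 and held 2054 tags. The second, at 228672023 to 228679308, held 1806 tags, and the third, at 228564864 to 228568444, held 531. The other 3 held 64 to 120. In the right flank the control peaks held 932, 105 and 147 tags.

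Where the lists met in the flanks, the knockout peak was small and the control domain large. The control domain of 2054 tags held 2 knockout peaks, with 34 and 144 tags, and the domain of 1806 tags held 1 knockout peak with 20 tags. The other 7 control peaks of the flanks held no knockout peak, against 71.6% of the whole control list. Summed per flank, the left flank had 1913 knockout and 4685 control tags and the right flank 567 knockout and 1184 control tags. Per 1000000 IP tags this was 142.8 in the knockout and 168.8 in the control on the left, and 42.3 in the knockout and 42.7 in the control on the right. The 5S window had 852 knockout tags per 1000000 IP tags in peaks and no control peak.

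Per kb of the reference genome the knockout peaks of the 5S window held 87.8 tags, against 6.70 in the flanks, a ratio of 13.1. How many 5S copies these cells carry was not examined. Tags from copies missing from the reference would be counted in the window, so this ratio need not hold per copy. Per kb covered by peaks the order turned round, with 316 tags in the window and 782 in the flanks, a ratio of 0.404. Pooled over peaks, the window was thus higher in the length of reference called and not in the density of tags within the calls. Single flank peaks ran from 45.8 to 3877 tags per kb, a range that takes in every peak of the window. The densest held 1167 of the 2480 flank tags. The run alone had 285 tags per kb covered.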

How the data were processed

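H3K4me3 IP and input libraries were made from MDA-MB-231 cells, knockout for ARID1A or control, 4 in all, and grouped by title. Inside the knockout list the library is called K6, a name absent from the labels; the list's own name ties it to the knockout. Bowtie2 2.2.4, MACS 1.4.3 and hg19 are named in the submitters' processing notes. Per the file headers, MACS was run on each IP against its own input with a p cutoff of 0.0001 and a fragment length of 300 bp, and the larger library was scaled to the smaller. Whether duplicates were removed is not stated there.

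The deposited tag counts are whole IP tags per peak, not normalized. The deposited score is −10 times log10 of the MACS p. The deposited fold enrichment is a ratio to the local input background, and the deposited FDR is in percent. Their values were compared only within a list. As alternative settings, a fold of 10 or more, or an FDR of 1% or less, was required in both lists.

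Peaks were compared with pandas 2.3.3, numpy 2.4.6 and scipy 1.17.1 under Python 3.11.15, and drawn with matplotlib 3.10.9. Overlap meant at least 1 bp, and edge distances were matched within 2 bp. Distances between peaks are start minus end, gaps within the run are the bases between peaks. Tiles took peaks by their midpoint. Every peak of the window was named; in the flanks, every peak where a list had 5 or fewer, otherwise the 3 with the most tags. Overlap, merging and spacing steps were tested on simulated data. RefSeq tables of GRCh38.p14 gave gene spacing, order and sequence, and no coordinate was converted. Intervals are exact 95% Poisson or Clopper-Pearson intervals. The sources name no molecular identifiers, so they cover counting error only. No test of genotype was possible with 1 IP library per genotype. The members and lists were chosen with earlier results of these data known. The 5S genes' own sequences were not used here.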

Additional observations from a re-analysis of the deposited data

How the results depend on the processing

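Tag sums and ratios were taken as kept within their counting interval, and other counts, lengths and distances within 1.5 times. Of 73 alternative values, 50 were kept, 22 moved and 1 turned round. The count of 0 control peaks in the 5S window could not rise under the alternatives run on it, which only remove or join peaks, so they say nothing of its stability. Omitting the peak outside the run and the tolerances were chosen after seeing the data.

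Knockout tags in the window, 11411 as reported, were 10161 in the narrower window (228.74 to 228.79 Mb) or without the peak outside the run, 8062 without the peak with the most tags, and 852 per 1000000 IP tags. The ratio of window to flanks, 13.1 as reported, was 30.3 in the narrower window, 11.7 without the peak outside the run, 9.18 against the left and 26.3 against the right flank alone, and 0.404 per kb covered. Merging peaks within 1000 bp left 2 knockout peaks with a median width of 20030.5 bp, in place of 12 with 1927 bp, by construction. The smallest distance to a control peak, 11126 bp, was 21761 bp with a MACS p of 1e-10 or less or an FDR of 1% or less, because a weak control peak is then left out, and 54222 bp in the narrower window or without the peak outside the run. Knockout minus control tags, -2772 in the left and -617 in the right flank, were -2588 and -365 at that p, -2608 and -365 at that FDR, and -26.0 and -0.330 per 1000000 IP tags. Distances of whole 2241 bp units, 12 of 165 pairs within 2 bp, were 6 at 0 bp and 42 within 50 bp. The cause was not tested for shifts with no reason given.

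No paired analysis was possible because each group has 1 library and no value comes from a test. Tag depth is no guide to precision in repeats, where placement is uncertain.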
